A study of Mus musculus with 6 samples.

Results

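Axon guidance genes encode the ligands and receptors of the semaphorin, ephrin, Slit, netrin, repulsive guidance molecule (RGM) and FLRT families. Members were taken by gene symbol, and 50 of the 11773 genes listed in the deposited table belonged to these families. They were 32 ligand genes and 18 receptor genes. The GENCODE M21 annotation holds 77 genes with matching symbols; the other 27, among them Dcc, Epha4, Robo4, Sema6a and Sema7a, are not analysed here.

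These families were first described as cues that steer growing axons, and most of them also act in blood vessels and in the skeleton. Secreted semaphorins bind neuropilins, which pair with plexins to signal inside the cell, whereas membrane-bound semaphorins bind plexins directly. Ephrins are ligands that stay on the cell surface: A-type ephrins are held by a lipid anchor and mostly bind EphA receptor kinases, and B-type ephrins span the membrane, mostly bind EphB receptors and can signal backwards into the cell that carries them. Slits bind Robo receptors. Netrins bind Unc5 receptors and neogenin (Neo1), which is also the receptor of the RGM proteins. RGM proteins in turn are co-receptors for bone morphogenetic proteins.

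The 6 libraries were made from poly(A) RNA of mouse 2H11 cells, a single line from the axillary lymph node of a C3H/HeJ mouse that is labelled endothelial. In one group of 3 libraries the starved cells received BMP4, a ligand that induces cartilage and bone, and in the other group of 3 they received BMP4 together with palovarotene, an agonist of the retinoic acid receptor gamma, each for 48 h. Both groups carried BMP4, so the comparison addresses what palovarotene changes in its presence, and no effect of BMP4 itself was measured. The labels do not say that the libraries of a group came from separate cultures, and p-values therefore reflect only how far these libraries varied, possibly for technical reasons.

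Values are FPKM, fragments scaled to transcript length and to the mapped total, which makes levels comparable between genes. Library sums over the listed genes ran from 244100 to 251300 FPKM. Of 12 endothelial markers 4 were listed, at a sum of 8.02 to 8.34 FPKM with BMP4 and of 3.05 to 3.39 with palovarotene; Pecam1, Cdh5 and Kdr, which define endothelium, had no listed values. All 7 fibroblast and mesenchyme markers were listed, at sums of 933 to 998 (BMP4) and 1078 to 1133 FPKM (palovarotene). Of these 2 rose, Col1a1 and Pdgfra, and 4 fell, Pdgfrb, Thy1, Lum and Dcn, and Col1a1 made up most of the sum. The sums were 39.9 to 43.0 (BMP4) and 29.4 to 31.8 FPKM (palovarotene) for 3 of 5 neuron markers, 1.04 to 1.39 (BMP4) and 0.0271 to 0.178 FPKM (palovarotene) for 1 of 5 glia markers, 18.2 to 19.1 (BMP4) and 11.7 to 12.3 FPKM (palovarotene) for 3 of 6 leukocyte markers and 9.06 to 11.2 (BMP4) and 31.4 to 32.4 FPKM (palovarotene) for 1 of 5 epithelial markers. Of the listed endothelial, neuron, glia and leukocyte markers 3, 2, 1 and 2 fell and 0 rose, and the epithelial marker rose. By the test described below, 23.8% of all tested genes fell and 19.1% rose. The endothelial marker Vwf and the glia marker S100b were below 0.5 FPKM with palovarotene and were listed through BMP4, so their falls are descriptive only. Tubb3 made up most of the neuron sum. The marker sums moved with the treatment, and their part in the results below was not tested. In RNA from whole cultures, fewer cells of a type and less RNA per cell cannot be told apart.

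With palovarotene the netrin genes Ntn4 and Ntn1, the netrin receptor genes Unc5b and Neo1, the B-type ephrin genes Efnb1 and Efnb2 and the Eph receptor gene Epha2 rose, while neuropilin 2 and most plexins, the semaphorin gene Sema3d, the kinase-dead receptor gene Ephb6 and Robo1 fell. Expression was tested with limma on log2(FPKM + 1) over the 11584 genes that averaged 0.5 FPKM or more, and a gene was called changed at a Benjamini-Hochberg adjusted p below 0.05. A log2 fold change is that of BMP4 + palovarotene over BMP4 on this scale, which understates changes of genes at low level. Of the 50 members 48 were tested; 18 were called higher and 19 lower, together 77.1% of the tested members, where 43.0% of all tested genes were called changed (19.1% higher and 23.8% lower). Among ligand genes 15 of 31 tested rose and 10 fell, and among receptor genes 3 of 17 rose and 9 fell. These counts take the RGM and FLRT genes as ligands and the neuropilin genes as receptors. Called changes of at least 2-fold on this scale were made by 6 members (12.5%), against 3.73% of all tested genes. The median absolute log2 fold change was 0.49 over the tested members and 0.18 over all tested genes, and the medians of the signed values were -0.03 and -0.03.

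The table lists a gene only where at least 1 group reaches a mean of 0.5 FPKM, and 6 members lay below that level in 1 group, so that they were listed through the other. Sema3g, Sema4f and Epha1 were below it with palovarotene, and Sema4g, Unc5c and Flrt3 with BMP4. Ratios, p-values and lack of overlap of these 6 are descriptive only. The counts over listed members therefore describe these genes and are no support for a difference of the families from other genes. Above a mean of 5 FPKM, 20 of 27 members (74.1%) and 42.2% of genes were called. In 38 of the 48 tested members every value of one group lay above every value of the other, and this held for 54.9% of all tested genes.

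**Figure D1:**
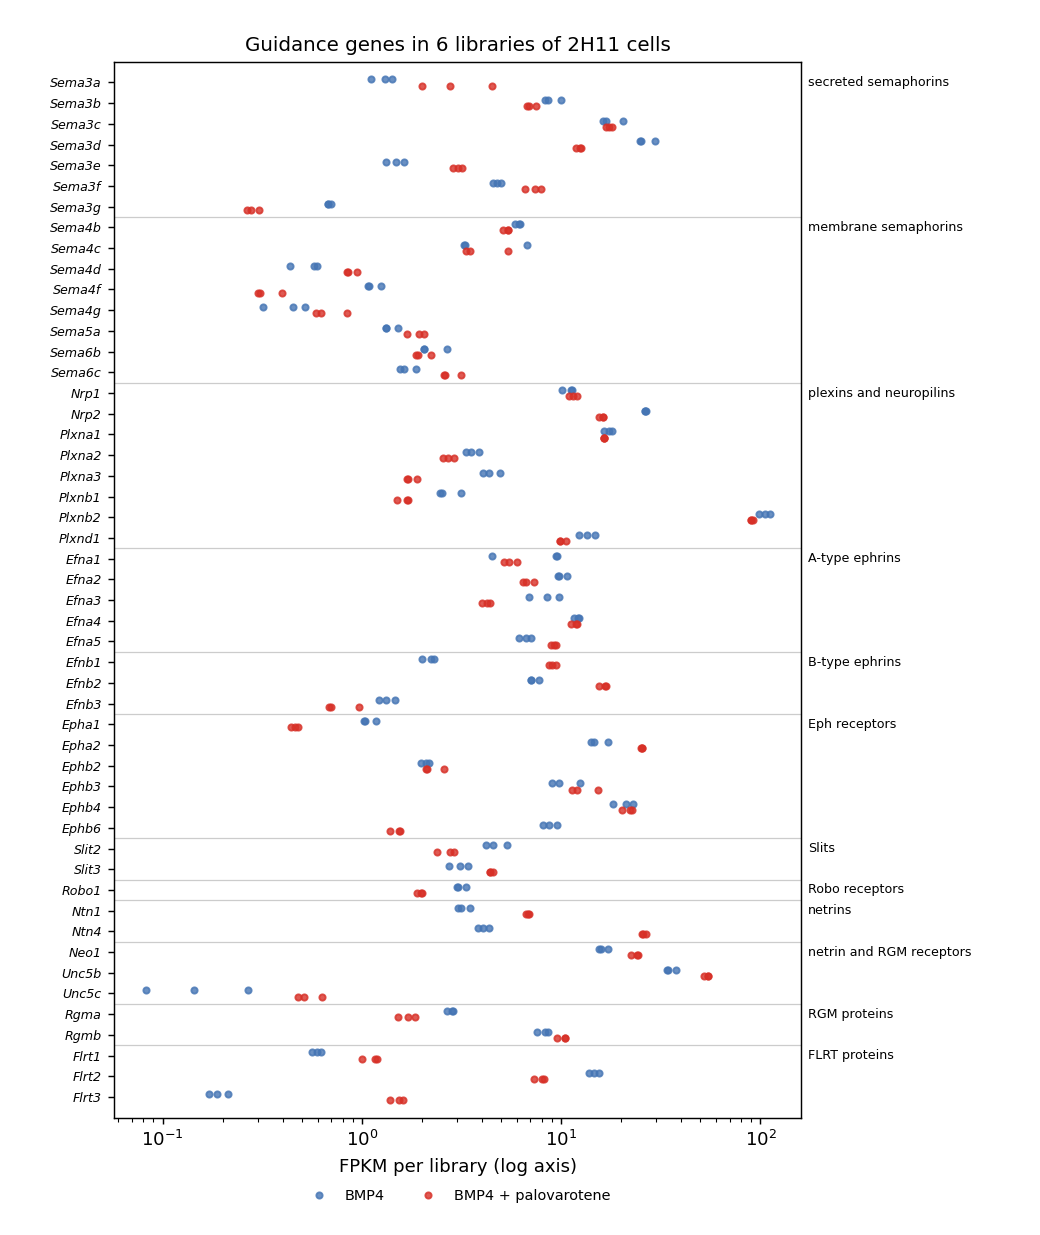
FPKM of the 50 guidance genes in each of the 6 libraries on a log axis, with BMP4 in blue and BMP4 + palovarotene in red, grouped by family. Plxnb2 was the most abundant member, at 98.4 to 111 FPKM with BMP4, and the groups stand apart most widely for Flrt3, Ntn4 and Ephb6. Flrt3 was listed only through its palovarotene mean.

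Both listed netrin genes rose, and Ntn4 showed the largest change of any member on the log2(FPKM + 1) scale; by ratio of means Flrt3 changed more. Ntn4 encodes netrin 4, a basement membrane protein that binds laminins. In the BMP4 libraries Ntn4 stood at 4.05, 4.36 and 3.85 FPKM, and with palovarotene at 26.6, 25.4 and 25.9. All 3 palovarotene libraries lay far above all 3 BMP4 libraries, and the mean rose from 4.09 ± 0.258 to 25.9 ± 0.594 FPKM (SD, n = 3), a 6.35-fold difference (log2 fold change 2.41, SE 0.0535, limma adjusted p = 3.55e-07). By absolute log2 fold change the gene ranked 54 among the 11584 tested. Ntn4 lies on chromosome 10 from 93640681 to 93747207 on the plus strand (GRCm38). Its main transcript, Ntn4-201, rose by a log2 fold change of 2.33 (limma adjusted p = 6.33e-05). The short transcript Ntn4-202 was listed at 0.195, 0.192 and 0.417 FPKM with BMP4 and at 14.9, 0.879 and 15.1 with palovarotene, and missed the threshold at an adjusted p of 0.131.

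The promoter window of Ntn4 is shown because this gene rose most on that scale. It spans 250 bases before to 50 bases after the RefSeq start, on the plus strand of GRCm38.p6 (chr10:93640799-93641098), and that start is also the first base of Ntn4-201. Capitals mark AGGTCA, the half-site letters bound by many nuclear receptors, found 222 bases before the start.
Ntn4 promoter: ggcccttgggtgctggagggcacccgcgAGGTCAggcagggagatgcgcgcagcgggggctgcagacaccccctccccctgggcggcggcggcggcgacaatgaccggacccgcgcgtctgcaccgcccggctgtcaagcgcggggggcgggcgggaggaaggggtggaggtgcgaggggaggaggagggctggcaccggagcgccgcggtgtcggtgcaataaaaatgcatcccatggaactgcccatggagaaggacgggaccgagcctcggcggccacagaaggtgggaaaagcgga
AGGTCA occurred in 20.9% of the 43 members with such a window and in 16.3% of all 32851 windows of the same length, searched on both strands. The RefSeq start lay within 100 bases of the start of the member's most abundant transcript for 33 of the 43. The other windows may not be the promoters used in these cells.

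Ntn1 encodes netrin 1, the classical secreted axon attractant. The libraries gave 3.14, 3.5 and 3.04 FPKM of Ntn1 with BMP4 and 6.91, 6.82 and 6.67 with palovarotene. The groups did not overlap, and the log2 fold change was 0.89 (SE 0.0580, adjusted p = 3.94e-05). The netrin receptor gene Unc5b, known for its part at the tips of growing vessels, was the second most abundant member after Plxnb2. Unc5b measured 37.9, 34.0 and 34.2 FPKM under BMP4 and 54.5, 54.6 and 52.3 under BMP4 with palovarotene. It was higher in every palovarotene library, with a log2 fold change of 0.59 (SE 0.0531, adjusted p = 0.000164). Neo1, the gene of neogenin, rose by 0.52 (adjusted p = 0.000425). Replicates of Neo1 were at 15.8, 17.2 and 15.4 FPKM with BMP4 and at 24.0, 22.4 and 24.2 with palovarotene. Its transcripts Neo1-201 and Neo1-202 traded places between libraries of the same group: Neo1-202 was at 20.5 FPKM in BMP4 replicate 2 and at 6.15 and 6.09 in the other 2, and at 29.4 in palovarotene replicate 3 and 11 and 11.5 in the other 2. Neither transcript passed the test. Unc5c, a further netrin receptor gene, was too low to be tested, at 0.143, 0.0822 and 0.268 FPKM with BMP4 and 0.631, 0.510 and 0.477 with palovarotene. It was listed only through its palovarotene mean, so the lack of overlap of its values is descriptive.

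The B-type ephrin genes moved apart, with Efnb1 and Efnb2 higher and Efnb3 lower. Efnb1 encodes ephrin-B1, loss of which disturbs the skull sutures in mouse and human. Efnb1 was at 2.29, 2.21 and 2.00 FPKM in the BMP4 libraries and at 9.38, 8.96 and 8.65 in those with palovarotene. Every palovarotene library exceeded every BMP4 library, and the mean rose from 2.17 ± 0.152 to 9.0 ± 0.367 FPKM (SD, n = 3; 4.15-fold; log2 fold change 1.66, SE 0.0592, adjusted p = 2.45e-06). Efnb2 encodes ephrin-B2, the arterial partner of EphB4. In the BMP4 libraries Efnb2 stood at 7.07, 7.76 and 7.02 FPKM, and with palovarotene at 16.7, 15.5 and 16.8. It was 2.24 times as high with palovarotene (log2 fold change 1.07, SE 0.0572, adjusted p = 1.51e-05). Efnb3, at 1.33 ± 0.124 FPKM with BMP4, fell to 0.783 ± 0.160 (SD, n = 3; log2 fold change -0.39, adjusted p = 0.00706). The 3 B-type ephrin genes had a summed level of 10.8 ± 0.363 FPKM with BMP4 alone and of 26.1 ± 0.648 after palovarotene, and the 5 A-type ephrin genes one of 45.0 ± 1.68 and 37.4 ± 0.967 (SD, n = 3).

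Ephb6 showed the largest fall of any member. It encodes an Eph receptor whose kinase domain is catalytically inactive. The libraries gave 9.53, 8.13 and 8.69 FPKM of Ephb6 with BMP4 and 1.53, 1.56 and 1.38 with palovarotene. No values overlapped, and the mean dropped from 8.78 ± 0.703 to 1.49 ± 0.0943 FPKM (SD, n = 3), which makes it 5.90 times as high with BMP4 alone (log2 fold change -1.97, SE 0.0686, adjusted p = 2.17e-06). Ephb6 lies on chromosome 6 from 41605482 to 41620509. Epha1, 738 kb away on the same chromosome, also fell, to 0.460 ± 0.0194 FPKM from 1.08 ± 0.0822 (log2 fold change -0.51, adjusted p = 0.000285). Epha1 was listed only through its BMP4 mean, so its fall and p-value are descriptive. Its exons overlap those of Zyx on the opposite strand. The libraries were strand-marked, but the sources used here do not say whether reads were assigned by strand, so the value of Epha1 is uncertain. The exons of 9 other members overlap genes that had no listed values, 8 of them on the opposite strand: Sema4c, Plxna1, Plxnb1, Efna3, Efna4, Ephb4, Unc5c and Rgma. The same doubt holds for these.

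The promoter windows of Ephb6 and Efnb2 are set side by side because these EphB-side genes moved in opposite directions. The first is on the plus strand at chr6:41605261-41605560 and the second on the minus strand at chr8:8661193-8661492 (RefSeq, GRCm38.p6), each printed 5′ to 3′. Capitals mark GGCGCC, a GC-rich sequence that BMP-activated SMAD proteins can bind, found 128 bases before the start of Ephb6 and 201 and 156 bases before that of Efnb2. The window of Efnb1, which rose more than Efnb2 (log2 fold change 1.66), is not printed and held no GGCGCC.
Ephb6 promoter: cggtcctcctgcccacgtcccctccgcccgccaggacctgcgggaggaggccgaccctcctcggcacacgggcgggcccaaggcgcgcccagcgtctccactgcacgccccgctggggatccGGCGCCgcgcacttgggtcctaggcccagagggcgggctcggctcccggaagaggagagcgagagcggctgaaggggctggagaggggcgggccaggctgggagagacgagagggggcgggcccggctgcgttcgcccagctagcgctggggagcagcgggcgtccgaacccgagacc
Efnb2 promoter: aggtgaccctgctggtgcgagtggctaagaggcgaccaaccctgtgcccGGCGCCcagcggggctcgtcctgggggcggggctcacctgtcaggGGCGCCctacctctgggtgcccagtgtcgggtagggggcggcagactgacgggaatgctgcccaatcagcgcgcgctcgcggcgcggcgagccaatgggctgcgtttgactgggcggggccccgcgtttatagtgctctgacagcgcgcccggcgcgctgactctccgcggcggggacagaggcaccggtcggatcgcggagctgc
GGCGCC reads the same on both strands and was present in 25.6% of the 43 member windows and in 11.9% of all windows. The member windows were richer in G and C, at a median of 64.7% against 52.7%. By direction, the motif was in 2 of 15 windows of members that rose and in 5 of 16 of those that fell. Members not called or not tested had it in 4 of 12 windows (33.3%), beside 31.2% for those that fell. None of the 43 member windows held a DR5 or DR2 element, direct repeats of the retinoid receptor half-site spaced by 5 or 2 bases; these were in 0.0974% and 0.268% of all windows. AGTTCA, another spelling of this half-site, was in 4.65% of member windows and 14.0% of all windows.

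The listed EphB receptor genes with an active kinase did not pass the test. Ephb4, the venous receptor of ephrin-B2, was among the more abundant members. Ephb4 measured 21.1, 18.1 and 23.0 FPKM under BMP4 and 22.3, 22.7 and 20.1 under BMP4 with palovarotene. The values of the groups overlapped (log2 fold change 0.07, SE 0.0913, adjusted p = 0.593). Ephb2 was at 2.08 ± 0.0975 and 2.27 ± 0.286 FPKM and Ephb3 at 10.4 ± 1.76 and 12.9 ± 2.17 (SD, n = 3), with adjusted p = 0.396 and 0.141. Without BMP4 replicate 1 Ephb3 passed the threshold at a log2 fold change of 0.41 (adjusted p = 0.0453). Epha2, the main EphA receptor gene listed, rose. Replicates of Epha2 were at 17.2, 14.5 and 14.2 FPKM with BMP4 and at 25.4, 25.4 and 25.1 with palovarotene. The palovarotene libraries lay within a narrow band above all BMP4 libraries (log2 fold change 0.69, SE 0.0736, adjusted p = 0.000380).

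**Figure D2:**
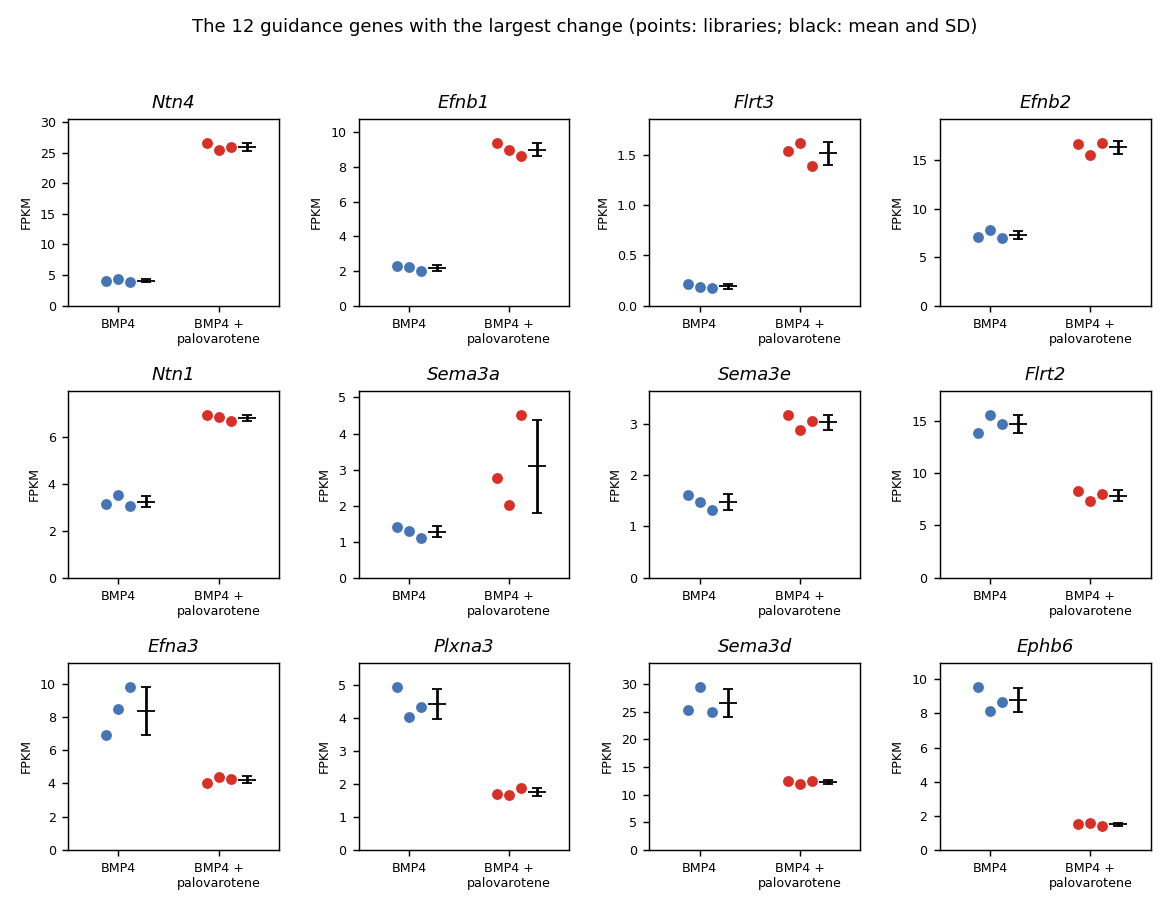
FPKM by library of the 12 called guidance genes that changed most by absolute log2 fold change, each on a linear axis from 0, with points for libraries and black marks for the mean and SD of 3 libraries. The groups do not overlap in any of the 12, but these were chosen for their change, and 54.9% of all tested genes do not overlap. Flrt3 was listed only through its palovarotene mean. Sema3a is the one whose palovarotene libraries are spread most widely, from 2.01 to 4.51 FPKM.

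Of the 5 A-type ephrin genes 1 rose and 2 fell, and 3 of the 5 lie close together. Efna1, Efna3 and Efna4 lie within chromosome 3 from 89271733 to 89338028, with gaps of 32.8 and 10.4 kb. Efna3 fell. Efna3 was at 6.90, 8.46 and 9.80 FPKM in the BMP4 libraries and at 4.02, 4.41 and 4.25 in those with palovarotene. The BMP4 libraries varied but all lay above those with palovarotene (log2 fold change -0.83, SE 0.112, adjusted p = 0.00113). Efna4, the nearest of them, was at 12 ± 0.372 and 11.7 ± 0.468 FPKM (SD, n = 3; adjusted p = 0.539). Efna1 depended on 1 library. In the BMP4 libraries Efna1 stood at 9.57, 9.45 and 4.51 FPKM, and with palovarotene at 6.0, 5.47 and 5.18. BMP4 replicate 3 lay below all palovarotene libraries and the other 2 above them (log2 fold change -0.37, adjusted p = 0.260); without that library the log2 fold change was -0.68 (adjusted p = 0.00118). Its transcript Efna1-202 was at 5.77 FPKM in BMP4 replicate 1 and listed at 0 in the other 5 libraries. On other chromosomes, Efna2 fell by a log2 fold change of 0.50 (adjusted p = 0.00106) and Efna5 rose by 0.41 (adjusted p = 0.00181).

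Receptors of the semaphorins fell where they changed. Of the 8 plexin and neuropilin genes, 6 fell and 0 rose; 23.8% of all tested genes were called lower. Their summed level was 184 ± 8.86 FPKM with BMP4 alone and 150 ± 1.08 after palovarotene (SD, n = 3). Plxna3, the gene of plexin A3, fell most. The libraries gave 4.94, 4.05 and 4.34 FPKM of Plxna3 with BMP4 and 1.70, 1.68 and 1.89 with palovarotene. The groups stood apart, with a mean 2.53 times as high under BMP4 alone (log2 fold change -0.98, SE 0.0743, adjusted p = 7.63e-05). Nrp2, a co-receptor of class 3 semaphorins and of lymphatic growth factors, followed. Nrp2 measured 26.3, 26.8 and 26.3 FPKM under BMP4 and 16.1, 15.4 and 16.3 under BMP4 with palovarotene. Replicates were close together in both groups (log2 fold change -0.70, SE 0.0415, adjusted p = 2.46e-05), and 4 of its 5 listed transcripts fell as well. Plxnb1, the receptor gene of semaphorin 4D, changed by -0.50, Plxnd1, the receptor gene of semaphorin 3E, by -0.38, Plxna2 by -0.30 and Plxnb2 by -0.21, with adjusted p between 0.00313 and 0.0151. The call of Plxnb2 was lost without palovarotene replicate 1 or replicate 3 (adjusted p = 0.0560 and 0.0564) and with a replicate block (0.0539). Nrp1 at 10.9 ± 0.637 and 11.5 ± 0.496 FPKM and Plxna1 at 17.3 ± 0.844 and 16.4 ± 0.0510 (SD, n = 3) did not pass (adjusted p = 0.345 and 0.312).

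The class 3 semaphorin genes, which encode the secreted ligands of these receptors, moved in both directions. Of 6 tested, Sema3a, Sema3e and Sema3f rose and Sema3b and Sema3d fell. Sema3d, the most abundant of them with BMP4 alone, fell by more than 1 on the log2 scale. Replicates of Sema3d were at 25.2, 29.4 and 24.9 FPKM with BMP4 and at 12.5, 11.8 and 12.5 with palovarotene. The groups were well apart (log2 fold change -1.05, SE 0.0703, adjusted p = 4.37e-05). Sema3e encodes a secreted repellent of endothelial cells that binds plexin D1. Sema3e was at 1.62, 1.48 and 1.31 FPKM in the BMP4 libraries and at 3.16, 2.87 and 3.04 in those with palovarotene. It was 2.06 times as high with palovarotene (log2 fold change 0.71, adjusted p = 0.000178), whereas its receptor gene Plxnd1 fell from 13.5 ± 1.19 to 10.1 ± 0.412 FPKM (SD, n = 3).

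Sema3a, the gene of the first vertebrate semaphorin known to collapse growth cones, rose with a wide spread. In the BMP4 libraries Sema3a stood at 1.41, 1.30 and 1.11 FPKM, and with palovarotene at 2.75, 2.01 and 4.51. All palovarotene values exceeded the BMP4 values (log2 fold change 0.80, SE 0.205, adjusted p = 0.0184), but the call was lost without BMP4 replicate 3 (adjusted p = 0.0609). In palovarotene replicate 3, the highest library, the transcript Sema3a-202 stood at 11.2 FPKM, against 0.606 and 0 in the other 2 and 0 in all BMP4 libraries. Sema3d, Sema3a and Sema3e are consecutive members on chromosome 5, with gaps of 536.5 kb and 422.7 kb (log2 fold changes -1.05, 0.80 and 0.71), and Sema3c lies 3318 kb further on. Sema3c, at 17.8 ± 2.29 and 17.4 ± 0.565 FPKM, did not pass (adjusted p = 0.821).

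Sema3f, the main ligand of neuropilin 2, and Sema3b lie 72.3 kb apart on chromosome 9 and moved in opposite directions. Sema3f rose to 7.30 ± 0.682 FPKM from 4.76 ± 0.224 (SD, n = 3; log2 fold change 0.52, adjusted p = 0.00136). Sema3b fell from 8.95 ± 0.866 to 7.01 ± 0.398 (log2 fold change -0.31, adjusted p = 0.0153), a call that was lost without palovarotene replicate 1 or replicate 3 (adjusted p = 0.0562 and 0.0523). Sema3g, too low to be tested, was at 0.678, 0.679 and 0.701 FPKM with BMP4 and 0.277, 0.305 and 0.266 with palovarotene.

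Of the 8 membrane-bound semaphorin genes, all with group means below 7 FPKM, 3 rose and 2 fell. Sema4f fell most among them, to 0.336 ± 0.0522 FPKM from 1.14 ± 0.101 (SD, n = 3; log2 fold change -0.68, adjusted p = 0.000132). Sema4f was listed only through its BMP4 mean, so its fall and p-value are descriptive. Sema6c rose by 0.49, Sema4d, a ligand gene of plexin B1, by 0.30 and Sema5a by 0.28, with adjusted p of 0.00229, 0.00722 and 0.0164. Sema4d was low, at 0.535 ± 0.0871 FPKM with BMP4 and 0.882 ± 0.0565 with palovarotene (SD, n = 3). The only listed transcripts of Sema6c and Sema4d overlapped between the groups and did not pass (limma adjusted p = 0.723 and 0.646). Sema4b fell by 0.16 (adjusted p = 0.0424). The calls of Sema4b and Sema5a depended on single libraries. The call of Sema4b was lost whichever library was left out, with adjusted p between 0.0556 and 0.144, and that of Sema5a without BMP4 replicate 3, palovarotene replicate 1 or palovarotene replicate 3 (adjusted p = 0.0535, 0.0547 and 0.0590) or with a replicate block (0.0527). Sema4g, with a log2 fold change of 0.24, did not pass (adjusted p = 0.0506), although its groups did not overlap. It was listed only through its palovarotene mean, so its values and calls are descriptive. It passed under 6 of 12 alternatives, with adjusted p between 0.0289 and 0.0494: no filter, quantile normalization, median-ratio scaling, no trend, the replicate block and without BMP4 replicate 1.

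Sema4c, a ligand gene of plexin B2, was set apart by 1 library in each group. The libraries gave 6.71, 3.30 and 3.25 FPKM of Sema4c with BMP4 and 5.39, 3.34 and 3.47 with palovarotene. In both groups replicate 1 was the highest, and the other 4 libraries lay between 3.25 and 3.47 FPKM. The difference between the groups did not pass (log2 fold change -0.06, SE 0.261, adjusted p = 0.868). Sema6b was at 2.26 ± 0.363 and 2.01 ± 0.195 FPKM (SD, n = 3; adjusted p = 0.370).

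**Figure D3:**
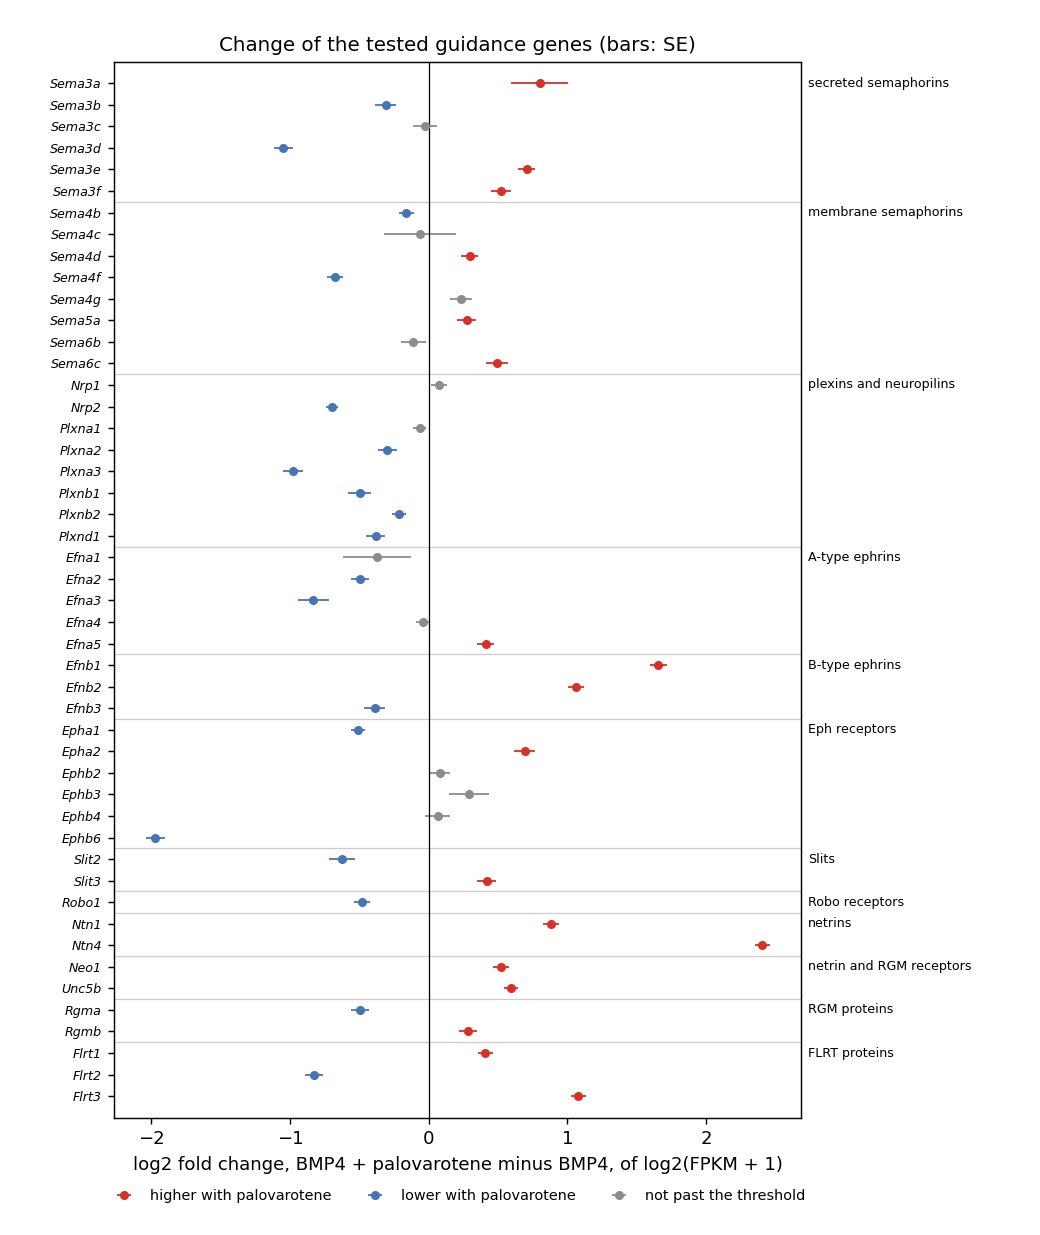
Log2 fold change of each of the 48 tested guidance genes on the log2(FPKM + 1) scale, BMP4 + palovarotene minus BMP4, with limma's SE as bars, coloured by whether the gene passed the threshold. All 6 called plexin and neuropilin genes lie to the left of 0, and both netrin genes and both tested netrin receptor genes to the right.

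Slit and Robo genes were few. Slit2, a secreted repellent that binds Robo1, fell. Slit2 measured 4.20, 5.35 and 4.57 FPKM under BMP4 and 2.91, 2.77 and 2.38 under BMP4 with palovarotene. The groups did not overlap (log2 fold change -0.63, SE 0.0924, adjusted p = 0.00175). Slit3 moved the other way, to 4.45 ± 0.0712 FPKM from 3.08 ± 0.325 (SD, n = 3; log2 fold change 0.42, adjusted p = 0.00281). Robo1, the one listed Slit receptor gene, fell to 1.96 ± 0.0673 FPKM from 3.13 ± 0.183 (log2 fold change -0.48, adjusted p = 0.000547).

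The FLRT genes, which encode transmembrane proteins that bind latrophilins and Unc5 receptors, split, with Flrt1 and Flrt3 higher and Flrt2 lower. Replicates of Flrt3 were at 0.213, 0.188 and 0.170 FPKM with BMP4 and at 1.54, 1.62 and 1.39 with palovarotene. Its level with BMP4 alone was among the lowest of all members, and it was 7.95 times as high with palovarotene (log2 fold change 1.08, SE 0.0537, adjusted p = 1.06e-05), the largest ratio of means among the members. A gene this low with BMP4 could be listed only if it was higher with palovarotene, so this ratio and p-value are descriptive. Flrt2 was at 13.8, 15.5 and 14.7 FPKM in the BMP4 libraries and at 8.24, 7.29 and 8.0 in those with palovarotene. Flrt2, the most abundant of the 3, was lower in every palovarotene library (log2 fold change -0.83, SE 0.0641, adjusted p = 8.41e-05). Flrt1 rose from 0.595 ± 0.0308 to 1.12 ± 0.0972 FPKM (SD, n = 3; adjusted p = 0.00110). The summed FPKM of the 3 genes was 15.5 ± 0.847 with BMP4 and 10.5 ± 0.456 with palovarotene.

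The RGM genes, whose proteins bind both neogenin and BMP ligands, also moved apart. Rgma fell to 1.69 ± 0.166 FPKM from 2.79 ± 0.107 (SD, n = 3; log2 fold change -0.49, adjusted p = 0.000884), and Rgmb, the more abundant of the pair, rose from 8.15 ± 0.549 to 10.2 ± 0.552 (log2 fold change 0.29, adjusted p = 0.0117). Opposite calls within a family were thus seen for the RGM, FLRT, Slit, A-type and B-type ephrin, Eph receptor and both semaphorin groups.

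Transcript values were listed for 49 members, 75 transcripts in all, of which 73 were tested; 11 rose and 17 fell (38.4%), where 12.9% of all tested transcripts were called. Leaving out palovarotene replicate 1, 2 or 3 reduced the 28 called to 15, 17 or 14 (6.97%, 7.65% and 7.15% of all transcripts), and a replicate block reduced them to 10 (3.39%). The most abundant transcript of a called gene, ranked over all 6 libraries, moved in the same direction as the gene in 36 of 37 cases and was itself called in 24. Gene and transcript values come from the same libraries, and 33 of the 49 members had 1 listed transcript. This agreement is therefore no independent support for the gene values. The exception in direction was Sema4b, whose gene value fell by 0.16 while Sema4b-201 was at 0.14 without passing the test. Ranked in the BMP4 libraries alone, 36 of 37 again had the same sign, but the exception was Sema3a, whose transcript Sema3a-204 was the most abundant there and had a log2 fold change of -0.85, and Sema4b-204 moved with its gene at -0.69. Neither of these transcripts passed the test.

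**Figure D4:**
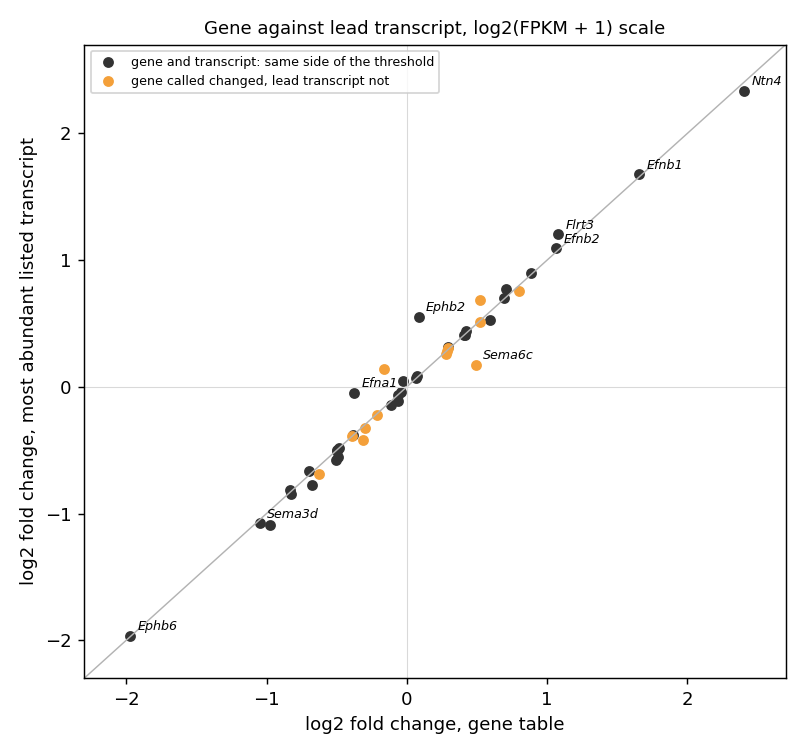
Log2 fold change of 47 guidance genes (horizontal) against that of their most abundant listed transcript (vertical), both on the log2(FPKM + 1) scale, with the line of equality in grey. Most points lie close to the line, but both values come from the same libraries and many members had 1 listed transcript. The 13 genes called without a call for the transcript, in orange, span gene values from -0.63 for Slit2 to 0.80 for Sema3a.

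Other genes of these pathways, which the symbols do not cover, were followed in a list of 59 symbols of effectors, partners and co-receptors. Of these 52 were listed and 51 tested; 9 rose and 17 fell, or 51.0% called beside 43.0% of all tested genes, with a median log2 fold change of -0.07 beside -0.03. Draxin, the gene of a secreted protein that binds netrin 1 and the netrin receptor Dcc, had the smallest p among those that rose, with a mean of 0.658 ± 0.0626 FPKM under BMP4 and 7.62 ± 0.454 with palovarotene (SD, n = 3; log2 fold change 2.38, limma adjusted p = 6.31e-07). It was followed by Rras2, a small GTPase gene (log2 fold change 0.74, adjusted p = 1.73e-05), and Srgap1, a Robo effector gene (0.92, adjusted p = 3.71e-05). Among those that fell the smallest p belonged to Flt1, a VEGF receptor gene that is also one of the endothelial markers above (-1.12, adjusted p = 6.93e-06). Rnd3 (-1.16, adjusted p = 8.28e-06), and Mical2, an actin-oxidising enzyme gene (-1.02, adjusted p = 1.12e-05), came next.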

How the data were processed

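Per the labels' protocols, poly(A) RNA was made into strand-marked libraries and sequenced from both ends. FastQC, cutadapt, HISAT2, StringTie and the build GRCm38 are named in the submitters' processing notes, which give neither versions nor settings. The deposited values are FPKM computed by the authors, per the file headers, in a gene and a transcript table limited to protein-coding rows whose higher group mean is at least 0.5004 and 0.5001 FPKM, as read from the values. FPKM hold no counts. A search for steps of single fragments gave a best mean cosine of 0.0765 to 0.103 and, in jittered values, of 0.0745 to 0.103, so depth is unknown and counting intervals could not be given. Groups were taken from sample titles and columns from descriptions; 0 value columns were left unused.

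Each table was fitted whole with limma 3.58.1 (R 4.3.3) on log2(FPKM + 1) with a mean-variance trend, for rows averaging 0.5 FPKM or more. Same-numbered libraries did not deviate together (r = -0.136 to -0.0207), so no block was used. Alternatives tried were leaving out each library, a replicate block, quantile and median-ratio scaling, a fit without trend, a minimum mean of 5 FPKM or none, and a pseudocount of 0.1. Every called member is named; full values are given for the 12 with the largest change and for partner genes. The members and lists were chosen with earlier results of these data known.

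Coordinates are those of the tables; 42 of 50 members had the same identifier version and the same start and end in GENCODE M21. Promoters are RefSeq windows, found for 43 of 50 members; where a gene had several, the one nearest its most abundant transcript was used.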

Additional observations from a re-analysis of the deposited data

How the results depend on the processing

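Of the 37 called guidance genes, 32 kept direction and call in every one of the 13 alternatives that tested them; the exceptions were Sema3a, Sema3b, Sema4b, Sema5a and Plxnb2, and no called gene changed sign. Sema4b, Sema5a and Plxnb2 lost their calls with the replicate block, and Sema4b also with quantile normalization and median-ratio scaling. Sema4g, Efna1 and Ephb3 gained a call in at least 1 alternative. With a mean of at least 5 FPKM, 10 guidance genes were called higher and 10 lower of 27 tested, 20 did not overlap (54.8% of all genes), 16 other pathway genes were called of 35 tested, and 3111 of all 7378 genes; fewer genes were tested there. The labels do not say that the replicate numbers used for the block mark shared cultures. With this block 18 guidance genes were called higher and 17 lower, 3844 genes in all. Of the guidance transcripts 10 were called in place of 28 (3.39% of all transcripts). Sema4g was gained there. Whichever library was left out, 16 to 20 guidance genes were called higher, 17 to 19 lower, 14 to 21 guidance transcripts, 19 to 25 other pathway genes and 3826 to 4798 genes in all, and 39 to 41 guidance genes did not overlap. In the same fits 6.97% to 11.2% of all transcripts were called and 59.9% to 64.4% of all genes did not overlap. Among the left-out libraries, the fall in transcripts called was greatest without palovarotene replicate 3 (14), replicate 1 (15) or replicate 2 (17), and the cause was not tested. Ranking transcripts in 1 group, an alternative chosen after seeing the data, left 36 of 37 called genes with a lead transcript of the same sign. The unknown depth limits statements on members below about 1 FPKM.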
